A study of Sus scrofa with 70 samples.

Results

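The muscle microRNAs (miRNAs) described here are ssc-miR-1, ssc-miR-133a, ssc-miR-133b, ssc-miR-206, ssc-miR-143 and ssc-miR-145, taken by name, with every arm, from the small RNA table of a study of the reproductive organs of boars. They make up 11 of the 743 entries of the table, and 11 of the 444 entries that carry the name of a known pig miRNA. Because miR-133a-3p and miR-133a-5p each have 2 entries, the 11 entries hold 9 names. The entries of miR-133a-3p were equal in all 30 libraries, those of miR-133a-5p were equal in 23 and at most 0.22 RPM apart in the rest, and 1 entry of each is used. RPM is the number of reads of an entry per 1000000 reads (M) counted on all entries of the library. All 9 names had at least 1 RPM in at least 3 libraries, the filter that 526 entries passed and all tests used.

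The 30 small RNA libraries came from 5 organs, the bulbourethral gland (BG), testis (Tes), prostate gland (PG), epididymis (Epi) and vesicular gland (VG), of boars aged 12 months, of the Banna mini-pig inbred line (BMI) and of the Diannan small-ear pig (DSE), from which BMI was bred. Each of the 10 groups of breed and gland had 3 libraries, so that each gland had 6. No group was treated, and no gene was targeted. The labels do not say whether the 3 libraries of a group came from separate animals, and p-values then measure only the spread between these libraries, which may be technical. RNA-seq of the same design (30 libraries) and full-length Iso-seq (1 library per group) were used for messenger RNAs. A library is named by breed, gland and number, such as DSE BG 3, and small RNA and RNA-seq libraries with 1 name are set side by side by that name alone.

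A miRNA is cut from the hairpin of a longer transcript, and 1 or both arms (5p and 3p) of the hairpin become mature strands of about the same length that guide repression of messenger RNAs. The bases near the 5′ end, the seed, do most of the pairing with a target. In mammals miR-1 and miR-133a are best known from skeletal and cardiac muscle, and miR-206 and miR-133b from skeletal muscle, where miR-206 belongs to slow fibres, regenerating fibres and satellite cells. The hairpins of miR-143 and miR-145 are made in smooth muscle and other mesenchymal cells under the control of SRF and myocardin. A wall of smooth muscle surrounds the epididymal duct and the accessory glands, and skeletal muscle lies over the bulbourethral gland of the boar as the bulboglandularis muscle. Below, miR-1, miR-133a, miR-133b and miR-206 are called the skeletal set (5 names) and miR-143 and miR-145 the smooth set (4 names). These names are labels and do not say which cells made the reads here.

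The mature sequences are shown because the seeds tell which names can be read as 1 family. They were read 5′ to 3′ from the RefSeq annotation of Sscrofa11.1 and its genome, with the seed, bases 2 to 8, in capitals.
ssc-miR-1: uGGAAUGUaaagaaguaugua
ssc-miR-206: uGGAAUGUaaggaaguguguga
ssc-miR-133a-3p: uUGGUCCCcuucaaccagcug
ssc-miR-133b: uUUGGUCCccuucaaccagcuau
ssc-miR-133a-5p: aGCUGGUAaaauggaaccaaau
ssc-miR-143-3p: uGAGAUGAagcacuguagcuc
ssc-miR-143-5p: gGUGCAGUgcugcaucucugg
ssc-miR-145-5p: gUCCAGUUuucccaggaaucccuu
ssc-miR-145-3p: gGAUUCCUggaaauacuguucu
The seed GGAAUGU is shared by miR-1 and miR-206, whose sequences have the same base at 18 of 21 positions counted from the 5′ end and differ at 3. Reads of these 2 miRNAs can therefore be told apart in full length only by those bases and by length. The annotated seeds of miR-133a-3p and miR-133b are UGGUCCC and UUGGUCC, which differ by an offset of 1 base. The annotated miR-133b starts with 1 more u, after which both sequences are the same up to the last bases at the 3′ end. They can therefore be read as 1 family, and their reads can be told apart only by the ends of the sequences. None of the smooth set shares a seed with another member.

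The precursors lie in pairs. MIR206 (chr7:45976293-45976372, plus strand) is 3765 bases from MIR133B (chr7:45980138-45980217, plus strand). MIR1 (chr17:61894036-61894143, plus strand) is 10637 bases from MIR133A-1 (chr17:61904781-61904883, plus strand), and MIR143 (chr2:150578738-150578817, plus strand) is 1308 bases from MIR145 (chr2:150580126-150580211, plus strand). The mature sequences of miR-1 and of both arms of miR-133a occur at 2 places in the genome, the other being on chr6 (MIR133A-2 at chr6:106998899-106998971, minus strand), so their reads cannot be assigned to 1 precursor. RefSeq places MIR143 and MIR145 in an intron of IL17B and MIR133A-2 in an intron of MIB1, both on the opposite strand, MIR133A-2 also in an intron of the long non-coding LOC110261182 on the same strand, and MIR1, MIR133A-1, MIR206 and MIR133B in no other RefSeq gene.

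Depth recovered from the step between low RPM values ran from 1.295 M miRNA reads in BMI Tes 1 to 21.672 M in DSE PG 1. It was at most 11.82 M in testis and at least 13.063 M in the other glands. Before the results, 5 libraries have to be named. In RNA-seq the skeletal muscle genes summed to 2280 TPM (transcripts in every 1000000) in DSE BG 3, to 883 in BMI Epi 1 and to 590 in BMI BG 1, against 14.9 to 179 in the other 5 epididymides and 3.21 to 51.4 in the other 4 bulbourethral glands. In BMI VG 1 and BMI PG 3 the balance of miRNA arms stood apart, as described below. By median, markers of gland identity (PRM1, TNP1 and ACR for testis, ADAM7 and CRISP1 for epididymis, AWN for vesicular gland, MSMB for prostate) were highest in the labelled gland, but AWN was also at 52020 TPM in BMI PG 2 and at 2446 TPM in BMI Epi 1. For the bulbourethral gland no marker of its own was in the list. In bulk tissue, fewer cells of a type and less RNA per cell cannot be told apart.

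The members together took from 1.39% (DSE BG 1) to 79.6% (DSE Epi 2) of the miRNA reads of a library, and nearly all of these reads were miR-143-3p. By gland the median share of the members was 49.7% in Epi, 33.2% in VG, 31.7% in PG, 17.5% in Tes and 2.16% in BG. Every RPM value here shares its total with these reads. miR-143-3p was the most abundant entry of 10 libraries and the second of 12, and was not among the first 3 in the 6 bulbourethral libraries, BMI VG 1 and BMI PG 3.

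miR-143-3p, the arm that makes up most of the miR-143 reads, was highest in Epi, with 231391 RPM in the lowest library, 485346 in the median and 788479 in the highest. In VG it ran from 41804 to 355670 with a median of 330030, and in PG from 30078 to 505567 with a median of 312476. Without BMI VG 1 and BMI PG 3, which held those lowest values, no library of either gland was below 293936 RPM. In Tes it ran from 126567 to 194482 (median 170338) and in BG from 13757 to 34337 (median 21001). All 6 bulbourethral libraries were therefore below all 6 libraries of testis and epididymis and below 11 of the 12 of VG and PG, the exception being BMI PG 3.

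miR-145-5p, cut from the neighbouring hairpin, was 22.5-fold to 372-fold lower than miR-143-3p in the same library but was likewise highest in Epi and lowest in BG. It ran from 1938 to 9547 RPM in Epi (median 4368), from 1338 to 3089 in PG (median 2381), from 863 to 3031 in VG (median 1600), from 867 to 1937 in Tes (median 1211) and from 132.7 to 408 in BG (median 243). The bulbourethral libraries did not overlap with those of any other gland. The less abundant arms followed, since miR-145-3p had a median of 560 RPM in Epi and 46.0 in BG, and miR-143-5p of 199 in Epi and 7.40 in BG.

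**Figure D1:**
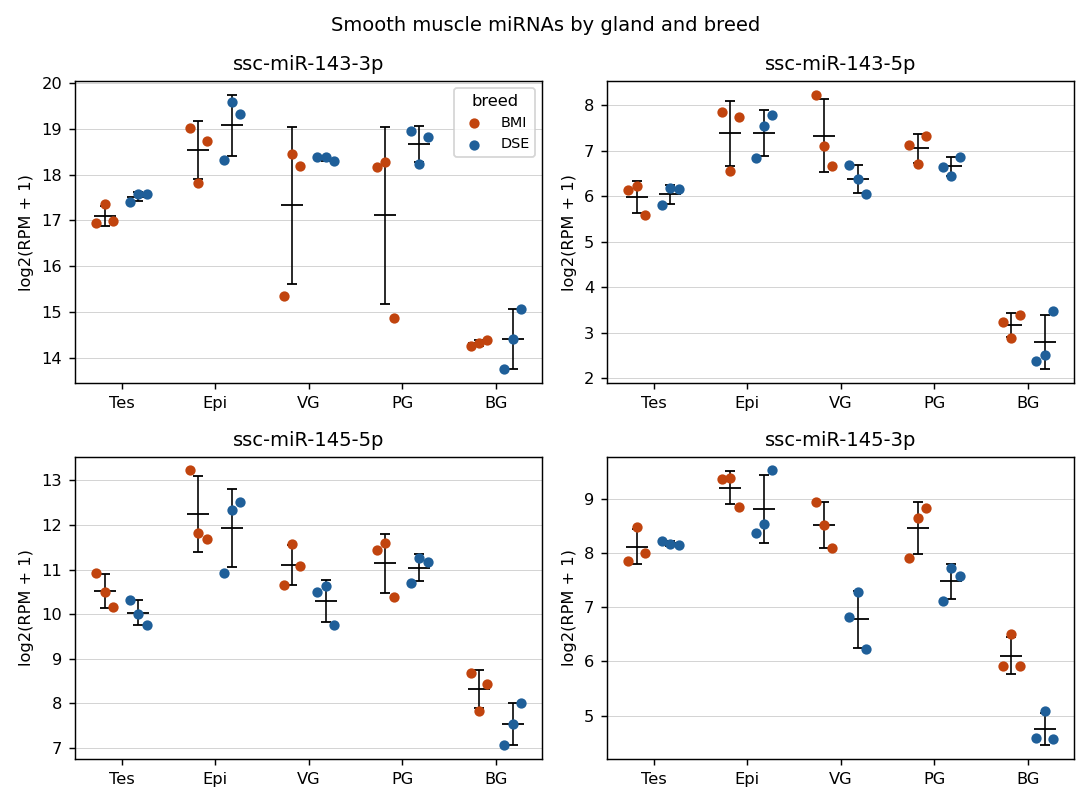
RPM of the smooth set in every library, by gland and breed, on a log axis, 1 panel per miRNA arm, with bars for the mean ± SD of the 3 libraries of a group. All 4 arms were lowest in the bulbourethral gland, and BMI vesicular gland 1 (41804 RPM) and BMI prostate gland 3 (30078 RPM) lay far below the rest of their glands for miR-143-3p.

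Differences between glands were tested with limma on log2(RPM + 1) over all 526 entries, and called at a Benjamini-Hochberg adjusted p below 0.05 with a log2 fold change of at least 1. This scale understates the change of entries near 1 RPM. Between Epi and BG, 8 of the 9 members were called, all higher in Epi, where 17.3% of all entries were called and the median entry differed by 0.14. miR-143-3p was 21.6-fold higher in Epi (log2 fold change 4.43, SE 0.49, limma adjusted p = 1.3e-07) and miR-145-5p 17.8-fold (4.15, SE 0.31, adjusted p = 1.6e-10). The other arms were 21.2-fold (miR-143-5p) and 11.9-fold (miR-145-3p) higher.

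The 4 arms of the smooth set were also the 4 members called between PG and BG (background 12.5%) and 4 of the 5 called between VG and BG (background 24.7%). miR-143-3p was higher than in BG by 3.52 log2 units in PG and by 3.47 in VG, and miR-145-5p was 8.94-fold and 6.82-fold higher. Among Epi, PG and VG the differences were smaller. miR-145-3p was the only member called between Epi and PG (2.05-fold higher in Epi, background 12.0%), and this call was lost without any 1 of 5 libraries (BMI Epi 1, BMI Epi 2, DSE Epi 3, BMI PG 1 or DSE PG 1), at log2 fold changes of 0.86 or more. Between Epi and VG both arms of miR-145 were called (miR-145-5p 2.61-fold and miR-145-3p 2.56-fold higher in Epi) together with miR-206, 3 members in all against a background of 21.9%. When libraries were scaled by median-of-ratios size factors in place of RPM, both miR-145 differences were below the fold limit, at 0.96 and 0.94. When the reads of the members themselves were left out of the RPM total, all 9 members were called between Epi and VG (background 37.8% in that setting) and 6 between Epi and PG (22.6%), the median entry then being 0.71 and 0.43 higher in Epi. miR-143-3p did not pass the test between Epi and PG (log2 fold change 0.92, SE 0.49, limma adjusted p = 0.18) or between Epi and VG (0.96, SE 0.49, adjusted p = 0.14).

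Between VG and PG none of the 9 members was called by limma, none had an unadjusted p below 0.05 and none was called by edgeR, against a background of 14.4%. For miR-143-3p the log2 difference was -0.05 (95% interval -1.05 to 0.96), so that a difference in either direction within that interval was not detectable.

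In testis the typical entry was higher on the RPM scale, and whether the scale or the entries themselves differed was not tested. The median of all 526 entries was 1.24 to 1.50 log2 units higher in Tes than in the other glands, and 61.6% to 70.7% of the entries were called. Size factors, which align the typical entry by construction, brought this shift to between 0.17 and 0.20. The differences of the members in testis are therefore given beside it. Against BG, 5 members were called higher in Tes (background 67.1%), the 4 arms of the smooth set and miR-1, but miR-143-3p exceeded the median entry by 1.66 log2 units and miR-145-5p by 1.07. Against Epi, 5 members were called lower in Tes (background 63.9%), namely miR-143-3p, miR-143-5p, miR-145-5p, miR-133a-3p and miR-133b. Relative to the median entry these 5 differed by -2.41 to -3.05 log2 units.

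Against PG only miR-1 was called in Tes (background 61.6%), and against VG miR-1 and miR-206 (background 70.7%), all higher. Relative to the median entry, miR-143-3p differed by -1.87 log2 units in Tes against PG and by -2.04 against VG, and with size factors these differences passed the test. The number of members called then rose to 5 against PG (background 41.1% with size factors) and 6 against VG (36.1%), and with edgeR on the recovered reads to 6 (background 54.0%) and 7 (50.8%). Without BMI PG 3 or BMI VG 1, miR-143-3p was called lower in Tes also on the RPM scale, at -1.14 against PG and -1.03 against VG. The calls of miR-1 were lost with size factors, where it was 0.40 higher than in PG and 0.08 higher than in VG, as was that of miR-206 against VG (1.09, adjusted p = 0.34). Against BG, miR-145-5p was then below the fold limit (0.68), and edgeR called neither miR-143-3p (0.92, adjusted p = 0.066) nor miR-145-5p (0.31, adjusted p = 0.35).

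**Figure D2:**
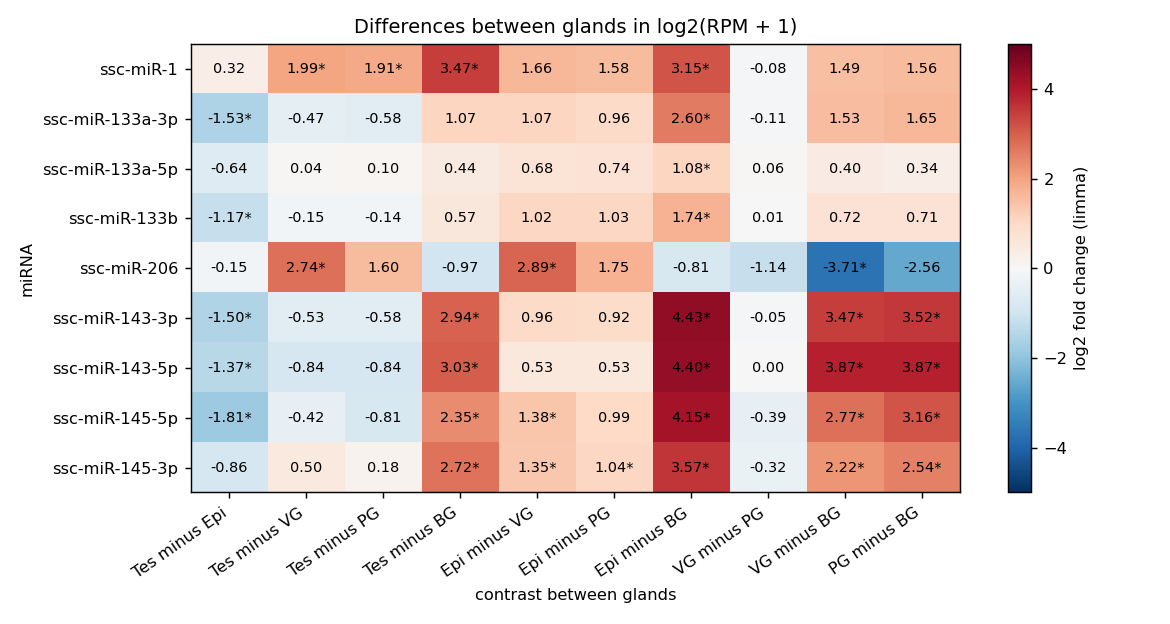
Log2 fold change for each of the 9 miRNAs between pairs of glands from the limma fit, with called differences marked. The smooth set lay 2.22 to 4.43 log2 units above the bulbourethral gland in Epi, VG and PG, and in the testis pairs the median of all entries lay between 1.24 and 1.50.

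miR-1, the most abundant member of the skeletal set, was highest in Tes and Epi. It ran from 2403 to 3580 RPM in Tes (median 3015), from 1055 to 5499 in Epi (median 2092), from 468 to 1013 in PG (median 916) and from 202 to 1524 in VG (median 842). In BG it was 23.8 RPM in the lowest library and 195 in the median, and the highest, DSE BG 3, had 4651. Testis was the gland with the least spread, 1.49-fold from the lowest to the highest library, and BG that with the most, 196-fold.

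Of the 10 pairs of glands, 4 differed for miR-1 on the RPM scale, all with Tes or Epi higher. It was 8.87-fold higher in Epi than in BG (log2 fold change 3.15, SE 0.74, limma adjusted p = 0.0020) and higher in Tes than in BG by 3.47 log2 units (SE 0.74, adjusted p = 0.00015), and edgeR on the recovered reads called neither (adjusted p = 0.051 and 0.91). In Tes it was 3.75-fold higher than in PG (adjusted p = 0.022) and 3.97-fold higher than in VG (adjusted p = 0.016), without allowance for the shift of the median entry, and with edgeR these log2 differences were 0.01 and -0.28, the latter of the opposite sign. The call against PG was lost without BMI PG 3. No neighbours in the order of the medians were called, although every library of Epi was above every library of PG (log2 fold change 1.58, SE 0.74, adjusted p = 0.13). The differences of Epi and Tes from BG were 4.22 and 4.54 without DSE BG 3 and 2.33 and 2.65 without DSE BG 1, and called in each case. Without DSE BG 3 the difference between Epi and PG was called (adjusted p = 0.0080), the one between Epi and VG was called as well (as it was without DSE BG 1), and the differences of PG and VG from BG grew from 1.57 and 1.49 to 2.63 and 2.55 and were called.

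miR-133a-3p, the partner of miR-1 in both of its clusters, was far lower and had another order. It ran from 67.8 to 287 RPM in Epi (median 106), from 18.2 to 93.0 in VG (median 66.8), from 36.7 to 89.8 in PG (median 66.4), from 26.6 to 57.3 in Tes (median 40.2) and from 2.12 to 260 in BG (median 13.3). BMI Epi 1 had the highest value of all libraries and DSE BG 3 the next, and without DSE BG 3 the bulbourethral libraries did not exceed 33.9 RPM. Between Epi and BG it was 6.07-fold higher in Epi (log2 fold change 2.60, SE 0.63, limma adjusted p = 0.0029), and was called with 3.47 without DSE BG 3 and with 1.88 without DSE BG 1. In Tes against Epi the log2 fold change was -1.54 (SE 0.63, adjusted p = 0.030), a call lost without any 1 of 5 libraries (BMI Tes 3, DSE Tes 3, BMI Epi 1, DSE Epi 2 or DSE Epi 3).

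miR-133b, cut from the hairpin next to that of miR-206, was a rare miRNA in these glands. It ran from 3.98 to 11.8 RPM in Epi (median 6.63), from 0.93 to 4.60 in VG (median 3.13), from 1.89 to 3.67 in PG (median 3.07), from 1.55 to 3.22 in Tes (median 2.81) and from 0 to 15.9 in BG (median 0.77). The highest value again was in DSE BG 3, and in DSE BG 1 none of 14.665 M reads was counted, which allows up to 0.205 RPM for counting error alone. It was higher in Epi than in BG by 1.74 log2 units (SE 0.44, limma adjusted p = 0.0042), or by 2.39 without DSE BG 3, and its log2 fold change in Tes against Epi was -1.17 (SE 0.44, adjusted p = 0.018), the latter lost without BMI Epi 1. The passenger arm miR-133a-5p reached at most 2.80 RPM, and in Tes and BG it rested on 0 to 13 reads a library. Its 1 call, higher in Epi than in BG by 1.08 log2 units, was lost without BMI Epi 1 or DSE Epi 3. With edgeR the calls of miR-133a-3p and miR-133b between Epi and BG were lost (adjusted p = 0.059 and 0.11).

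miR-206 was the only member whose highest median was in BG. There it ran from 0.96 to 1081 RPM with a median of 97.4. In Tes it ran from 25.1 to 57.2 (median 31.9), in Epi from 9.29 to 477 (median 28.2), in PG from 2.95 to 43.9 (median 8.95) and in VG from 0.77 to 33.1 (median 4.21). Testis was again the gland with the least spread. Elsewhere single libraries stood far above the others, namely DSE BG 3 in BG, BMI Epi 1 in Epi and BMI VG 3 in VG, and the lowest value in BG, 14 reads in DSE BG 1, was below every library of Tes, Epi and PG.

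The bulbourethral values of miR-206 were 142, 101 and 37.1 RPM in BMI and 0.96, 93.6 and 1081 RPM in DSE. Its difference from VG was 13.1-fold (log2 fold change of VG minus BG -3.71, SE 0.94, limma adjusted p = 0.0033), the only member called lower in VG than in BG. The difference from PG, 5.91-fold, did not pass the test (-2.56, SE 0.94, adjusted p = 0.059), but passed it without BMI Epi 1 or DSE BG 1, with size factors (-2.69), with a replicate block and with edgeR (-4.08). Between Tes and BG the RPM difference was -0.97 (SE 0.94, adjusted p = 0.34), or -2.24 relative to the median entry, and with size factors it was called at -2.51. Without DSE BG 1 it was -2.19 and called (adjusted p = 0.0052), and so was the difference between Epi and BG, which was -0.81 with all libraries and then -2.04 (adjusted p = 0.031). Without DSE BG 3 these differences were 0.09 and 0.24 and not called. The difference of VG from BG was called with any 1 library left out, at -2.65 without DSE BG 3 to -4.93 without DSE BG 1. miR-206 was also 7.44-fold higher in Epi than in VG (2.89, SE 0.94, adjusted p = 0.020), a call lost without BMI Epi 1 (2.22) or DSE Epi 3. No neighbours in the order of its medians were called, and all of them overlapped.

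**Figure D3:**
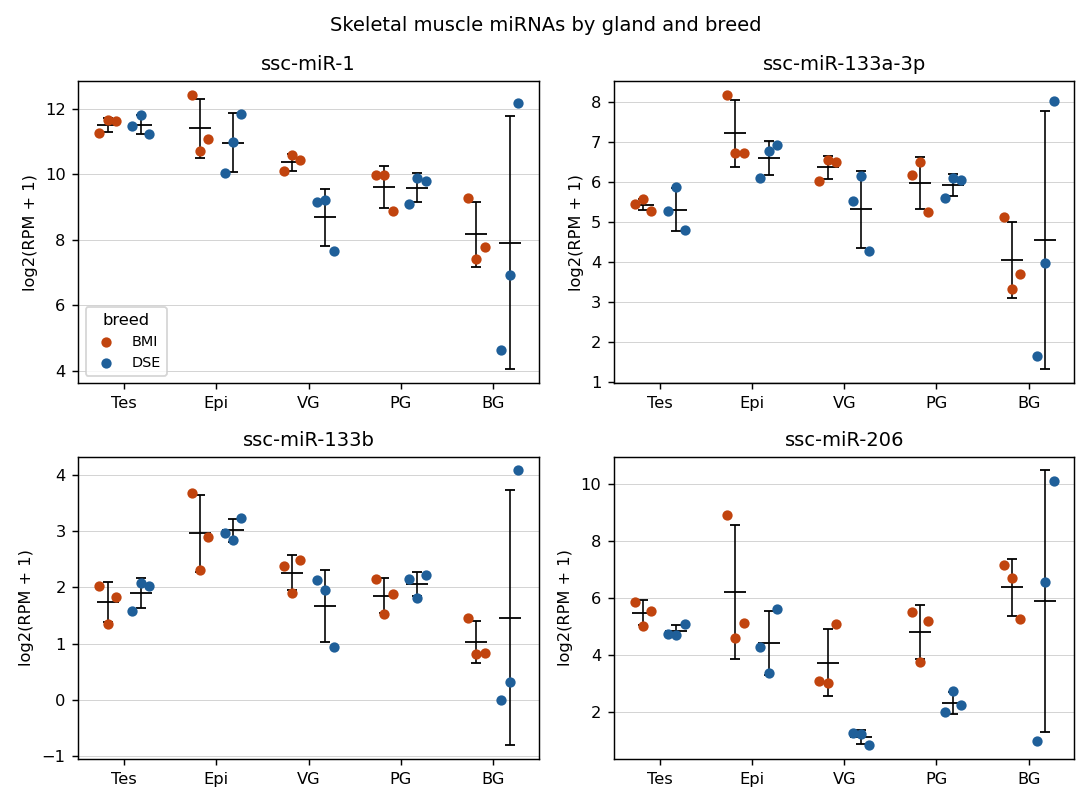
RPM of miRNAs of the skeletal set in every library, by gland and breed, on a log axis, 1 panel per miRNA arm, with bars for the mean ± SD of the 3 libraries of a group. DSE bulbourethral gland 3 lay far above the other 5 bulbourethral libraries in every panel, with 4651 RPM for miR-1 and 1081 for miR-206, and BMI epididymis 1 was the highest epididymal library, with 477 RPM for miR-206.

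Counted over the 10 pairs of glands, 34 of the 90 tests of the 9 members were called, near the background of 36.6% over all entries, with 22 of 40 for the smooth set and 12 of 50 for the skeletal set. When member reads were left out of the RPM total 52 of the 90 were called (background 41.6%). Without BMI Epi 1 and DSE BG 3 together, a setting chosen after the data were seen, 43 of the 90 were called (background 38.0%). miR-1, miR-133a-3p and miR-133b were then called higher in both PG and VG than in BG.

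The balance within the skeletal set differed between glands. miR-1 exceeded miR-133a-3p 57.8-fold to 90.5-fold in Tes (median 72.8) and 8.22-fold to 30.8-fold in all 24 other libraries, so that the testis libraries did not overlap with the rest. miR-1 exceeded miR-206 only 1.28-fold to 24.7-fold in BG (median 4.32), against medians of 69.0 in Epi, 88.2 in Tes, 126 in PG and 239 in VG. Expressed as a share, miR-206 made up 3.58% to 40.9% of the skeletal set in BG (median 17.9%) and at most 7.59% in any other library. In DSE BG 3 its share was 18.0%, close to the median of the gland, whereas BMI Epi 1 had the highest share outside BG. Ratios between different miRNAs also carry how well each sequence is ligated and amplified, so a fold between miRNAs of the same library is one of reads and not of molecules.

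The sum of the skeletal set over that of the smooth set was lowest in DSE VG 3 (log2 ratio -10.51) and highest in DSE BG 3 (-2.53). Its median was -8.39 in VG, -8.20 in PG, -7.49 in Epi, -6.28 in BG and -5.72 in Tes. BG had the widest spread, with an SD of 2.17 over 6 libraries, and Tes the narrowest (0.33). Nearly all of the denominator was miR-143-3p. With miR-145 alone as the smooth set the medians were -1.50 in PG, -1.20 in VG, -0.87 in Epi, -0.06 in BG and 0.99 in Tes, where the skeletal set exceeded miR-145 in all 6 libraries.

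**Figure D4:**
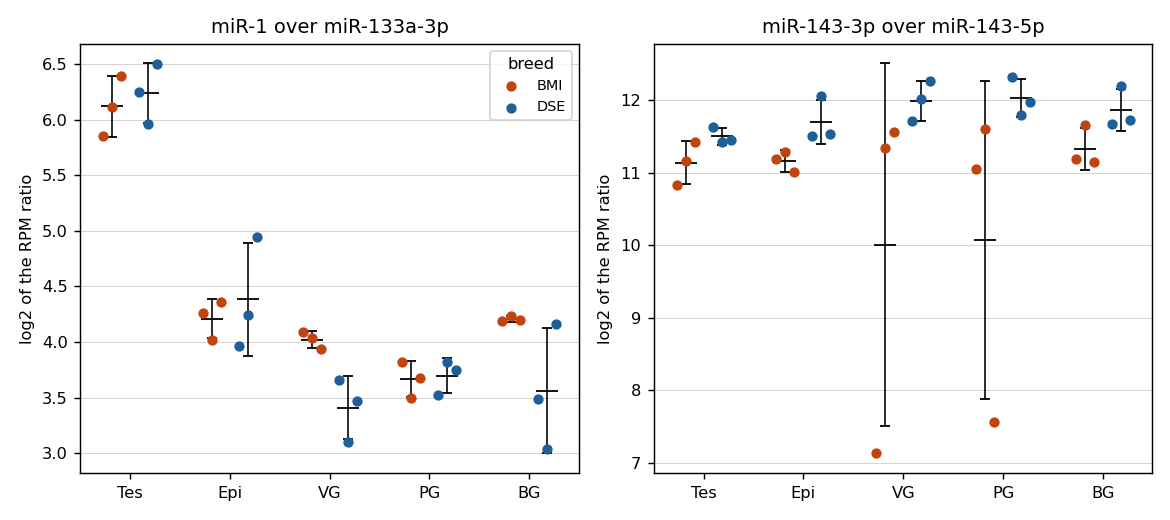
Ratios in every library by gland, among them miR-1 over miR-133a-3p and the 3p over the 5p arm of miR-143. Testis stood apart in miR-1 over miR-133a-3p (57.8 to 90.5), and BMI vesicular gland 1 (140) and BMI prostate gland 3 (189) were the lowest in the arms of miR-143.

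The arms of miR-143 are shown on the hairpin of MIR143 (chr2:150578738-150578817, Sscrofa11.1, plus strand), in which capitals mark the 5p and then the 3p mature strand.
MIR143: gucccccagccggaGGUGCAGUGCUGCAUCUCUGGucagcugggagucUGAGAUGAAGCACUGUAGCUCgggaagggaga
In 28 libraries the 3p strand was counted 1821 to 5096 times as often as the 5p strand. In BMI VG 1 it was counted 140 times and in BMI PG 3 189 times as often. In BMI VG 1 miR-143-3p was the lowest of its gland (41804 RPM) and miR-143-5p the highest (298 RPM), and in BMI PG 3 they were likewise the lowest (30078 RPM) and the highest (159 RPM). The arms of other miRNAs moved in the same 2 libraries. Over 30 known miRNAs with a median of at least 10 RPM on both arms, the log2 ratio of 3p to 5p differed from the median of the other libraries of the gland by a median of -1.03 in BMI VG 1 and -0.96 in BMI PG 3, against -0.31 to 0.29 in the other 28 libraries. miR-143 had the largest shift of the 30 in both (-4.57 and -4.23). For miR-145, whose abundant arm is 5p, the same measure moved by 1.64 and 1.97. In the RNA-seq libraries of the same names the smooth muscle genes were the lowest of their gland as well, at 606 TPM in BMI VG 1 and 212 TPM in BMI PG 3. The part of the one in the other was not tested.

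Between the breeds, few members differed. On the RPM scale the median entry differed between DSE and BMI by -0.41 log2 units in BG, -0.54 in Epi, -0.39 in VG, -0.09 in PG and -0.10 in Tes, and by -0.35 over all glands. miR-145-3p was the only member called within a gland, in BG (1 of 9 members, background 5.51%) and in VG (1 of 9, background 4.37%). In VG it was 491.65, 365.93 and 271.04 RPM in BMI and 111.52, 154.33 and 74.42 RPM in DSE. In BG it was 59.44, 89.37 and 58.94 RPM in BMI and 23.13, 33.01 and 22.67 RPM in DSE. The breeds did not overlap in either gland, nor in PG, where the BMI values were 239.04, 397.33 and 454.30 RPM and those of DSE were 138.27, 211.21 and 189.30 RPM. The highest values in VG and PG were those of BMI VG 1 and BMI PG 3, where the log2 ratio of 3p to 5p of miR-145 was shifted by 1.64 and 1.97. The call in VG was kept with any 1 library left out, at -1.47 to -1.99.

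For miR-145-3p the log2 difference of DSE from BMI was -1.74 in VG (SE 0.33, limma adjusted p = 0.0029) and -1.36 in BG (SE 0.33, adjusted p = 0.020). The call in BG was lost without BMI BG 2, BMI BG 3 or DSE BG 1. With size factors neither passed the test (adjusted p = 0.077 in VG and 0.71 in BG), nor with edgeR (0.16 and 0.68) or without member reads in the RPM total (0.053 and 0.066). In PG the difference was -0.98 (adjusted p = 0.29), in Epi -0.40 and in Tes 0.06. A test of whether the breed difference changed between glands called 25 of 526 entries (4.75%) and none of the members by limma or by edgeR, with miR-145-3p nearest (adjusted p = 0.075) and the only one with an unadjusted p below 0.05. It was called without DSE VG 2 (adjusted p = 0.046).

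In Epi and Tes none of the members was called by limma or by edgeR and none had an unadjusted p below 0.05, against a background of 10.3% and 8.37%. In PG none was called by either tool and 2 had an unadjusted p below 0.05 (miR-143-3p, higher in DSE by 1.56, and miR-145-3p), against a background of 0.57%. Without BMI PG 3, which stood apart in miR-143-3p, that difference was 0.44, and without BMI PG 2 it was 2.14. The difference of miR-1 in BG was -0.25 with an SE of 1.04, and without DSE BG 3 it was -2.39 and called (adjusted p = 0.022).

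The libraries of the breeds did not overlap for 4 of the 9 members in VG (33.1% of all entries), 2 in PG (11.8%), 1 in BG (31.9%), 1 in Tes (33.8%) and 0 in Epi (20.5%). Beside miR-145-3p in VG, PG and BG, these were miR-206 in VG and PG, miR-1 and miR-145-5p in VG and miR-143-3p in Tes. In VG miR-1 was 1087, 1524 and 1374 RPM in BMI and 566, 598 and 202 RPM in DSE, and miR-145-5p was 1616, 3031 and 2175 RPM in BMI and 1443, 1583 and 863 RPM in DSE. In Tes miR-143-3p was higher in DSE, at 173292, 194482 and 194208 RPM against 126567, 167385 and 129193 RPM in BMI.

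miR-206 was lower in DSE than in BMI in VG, with 7.40, 7.03 and 33.13 RPM in BMI and 1.38, 1.34 and 0.77 RPM in DSE. The same held in PG, with 43.87, 12.27 and 35.27 RPM in BMI and 2.95, 5.63 and 3.67 RPM in DSE. In BG, Epi and Tes the breeds overlapped. Over all 5 glands miR-206 was the only member called between the breeds (1 of 9, background 4.37%), with a log2 difference of DSE from BMI of -1.60 (SE 0.60, limma adjusted p = 0.035), or of -1.25 relative to the median entry. This call was lost without any 1 of 9 libraries, at differences from -1.11 to -2.02 over all single libraries left out. It was also lost with size factors (-1.22, adjusted p = 0.18), without member reads in the RPM total (-1.40, adjusted p = 0.13), and with edgeR (-1.19, adjusted p = 0.14). miR-143-3p went the other way, higher in DSE by 0.73 (adjusted p = 0.060), and with size factors this was 1.22 and called (adjusted p = 0.0081), as it was with edgeR (1.14, adjusted p = 0.010). The differences of miR-145-3p (-0.88, adjusted p = 0.00014) and miR-145-5p (-0.50, adjusted p = 0.045) over all glands passed the p limit but not the fold limit.

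Messenger RNAs of smooth muscle were, like miR-143 and miR-145, highest in Epi and low in BG. Of 12 smooth muscle genes, 12 were higher in Epi than in the mean of the other 4 glands (background 15.1% called higher), with TAGLN, an actin-binding protein of smooth muscle, at a median of 1980 TPM, and the smooth muscle actin ACTA2 at 2035, the myosin heavy chain MYH11 at 1024 and the actin ACTG2 at 801. In BG 10 of the 12 were lower (background 12.0% called lower), with TAGLN at 98.6 TPM and ACTA2 at 60.0. In Tes 10 of the 12 were lower as well (background 12.7%), with TAGLN at 59.3 TPM and ACTA2 at 58.5. The genes were called by limma on log2(TPM + 1) over 19796 genes with the same limits as above. The median of the list was 3.43 log2 units in Epi, -2.02 in BG and -2.38 in Tes, where the median gene stood at 0.25, -0.05 and 0.31.

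In VG 4 of the 12 were higher (background 2.95%), namely MYH11, ACTG2, CNN1 and TAGLN, and in PG 1, CNN1 (background 3.69%). With size factors 9 were called in VG. The list median was 0.69 in VG and 0.22 in PG, where the median gene stood at -0.69 and -0.28. Testis and BG overlapped in the sum of smooth muscle messenger RNA, 188 to 467 TPM and 246 to 624 TPM, while miR-143-3p was 126567 to 194482 RPM in Tes and 13757 to 34337 RPM in BG. Within a gland the rank correlation of miR-143-3p with the smooth muscle sum over the 6 libraries was 0.94 in Tes, Epi and PG, 0.71 in VG and 0.60 in BG, given as a description of libraries that share the RPM total and the TPM total. For miR-145-5p it was 0.66 in Epi, 0.77 in BG, 0.54 in VG, 0.09 in PG and -0.89 in Tes.

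Myocardin (MYOCD), the co-activator of SRF at smooth muscle genes, was higher in Epi by 1.61 log2 units (limma adjusted p = 4.4e-06) and in Tes by 1.65 (adjusted p = 9.6e-07), and lower in VG (-1.06) and in BG (-1.32). SRF itself was higher in Epi by 1.28 (adjusted p = 8.6e-05) and was not called in the other glands. Of the 6 regulators tested, 2 were called higher in Epi (background 15.1%), 2 higher in Tes (MYOCD and MEF2A, background 34.6%), 3 lower in VG (MYOCD, MEF2A and MEF2C, background 30.1%), 1 lower in BG (background 12.0%) and none in PG by limma, where MYOCD (-0.89, adjusted p = 0.0034) and MRTFB (0.81, adjusted p = 0.0048) passed the p limit but not the fold limit. The genes with the highest levels in this list, SRF, MEF2D, MRTFB and MEF2A, had medians over the glands of 11.9 to 39.6, 15.8 to 32.2, 13.2 to 25.9 and 3.95 to 25.4 TPM, and MRTFA did not exceed 0.114 TPM in any library. Markers of pericytes, which also make miR-143 and miR-145, summed to medians of 31.9 TPM in Tes, 88.8 in Epi, 34.4 in VG, 90.1 in PG and 58.4 in BG. Of its 5 genes, of which PDGFRB, RGS5, NOTCH3 and CSPG4 were the most abundant, 4 were lower in Tes (background 12.7%), 3 were higher in Epi (15.1%) and RGS5 was lower in VG (30.1%).

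Skeletal muscle genes were highest in a few libraries, and some of them were also found throughout epididymis or testis. Of 24 genes listed 20 were matched by symbol, and 15 passed the filter of 1 TPM in 3 libraries. Of the 20, 16 were highest in DSE BG 3. There the skeletal actin ACTA1 was 688.6 TPM and the fast troponin I TNNI2 was 427.2, and in BMI BG 1 they were 221.9 and 92.88, whereas in the other 4 bulbourethral libraries ACTA1 was 0 to 13.16 and TNNI2 was 1.129 to 11.77. In BMI Epi 1 they were 341.2 and 127, and in the other 5 epididymides ACTA1 was 0 and TNNI2 at most 2.61. The myogenic factor MYF6 was 8.685 TPM in DSE BG 3, and MYOG and MYOD1 reached 0.6343 and 0.1998 TPM in any bulbourethral library.

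In BG 5 of 15 skeletal genes were called higher (background 8.45%), TNNI2, TNNT3, MYL1, TNNT1 and ATP2A1, all contractile or calcium-handling genes of muscle fibres. Without DSE BG 3 the number was 1, without BMI BG 1 it was 2, and without DSE BG 1 it was 10. In Epi 3 of the 15 were higher (CKM, TNNC2 and CASQ1), near the background of 15.1%. In Tes 4 were called higher (background 34.6%), and these were MYOZ1, CA3, MYBPC1 and ACTN3, while TNNI2, TNNT3, MYL1 and CKM had testis medians of 0.20, 0, 0.01 and 0.65 TPM. MYOZ1, a Z-disc protein, ran from 39.62 to 134.7 TPM in Tes, and CA3, a carbonic anhydrase of slow fibres, from 44.31 to 162.5. In VG 6 (background 30.1% called lower) and in PG 4 (background 12.8%) were lower, the 4 of PG being those that were higher in Tes. The cardiac list behaved likewise in Tes, where 3 of 4 genes tested were higher (TNNI3, MYBPC3 and TNNT2, with medians of 23.0, 12.6 and 11.0 TPM), and in the other glands no median of these 3 exceeded 0.67 TPM, while MYH6 was highest in Epi (median 3.08 TPM).

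Because 6 of the 20 skeletal genes (ACTA1, TNNT1 and the 4 above) had a testis median above 1 TPM, the skeletal sum was also taken over the other 14. This sum was 1451 TPM in DSE BG 3, 345 in BMI BG 1 and 2.14 to 27.4 in the other 4 bulbourethral libraries. It was 494 TPM in BMI Epi 1, 175 in DSE Epi 2 and 10.2 to 55.9 in the other 4 epididymides, 3.18 to 6.61 in Tes, and at most 4.21 in VG and PG. Its median was 16.8 TPM in BG, 1.72 in VG and 1.80 in PG. miR-1 went the other way, with medians of 195 RPM in BG, 842 in VG and 916 in PG. So did miR-133a-3p, with medians of 13.3, 66.8 and 66.4 RPM. The libraries with the highest sum of the bulbourethral and the epididymal group were also those with the highest miR-206, miR-1, miR-133a-3p and miR-133b of the group. They were also the highest of their gland in the pericyte sum, at 154 TPM in DSE BG 3 (gland median 58.4) and 440 TPM in BMI Epi 1 (gland median 88.8). In BG the order of the 6 libraries by the sum of the 14 genes was the same as that by miR-133a-3p, and had a rank correlation of 0.83 with miR-206 and miR-1. The smooth muscle sum had rank correlations in BG of 0.77 with miR-1 and 0.66 with miR-133a-3p. In Epi the rank correlation of the skeletal sum was 0.77 with miR-133a-3p, 0.54 with miR-1 and 0.26 with miR-206. The smooth muscle sum ranked as closely with miR-133a-3p (0.77) and miR-1 (0.60) there. In the other glands the rank correlation with the skeletal sum had no common sign. For miR-206 it was -0.43 in Tes, 0.20 in VG and 0.43 in PG, for miR-1 -0.09, 0.71 and -0.49, and for miR-133a-3p -0.09, 0.77 and -0.49. With the smooth muscle sum it was 0.20, 0.54 and 0.09 for miR-1 and -0.09, 0.77 and 0.09 for miR-133a-3p.

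In Tes the sum of the 14 genes was low by their choice, and all 20 genes summed to 219 to 252 TPM there, most of it MYOZ1 and CA3 (medians 119.7 and 73.8 TPM), with ACTA1 at a median of 9.79. In BMI BG 2 and BMI BG 3, where miR-206 was 101 and 37.1 RPM, the 14 genes summed to 5.26 and 6.21 TPM and all 20 to 51.4 and 7.87 TPM. The satellite cell factor PAX7 had its highest value in Tes (0.7847 TPM) and was 0.1532 TPM or less in BG. The part of fibres, of satellite cells or of other cells in these levels was not tested.

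**Figure D5:**
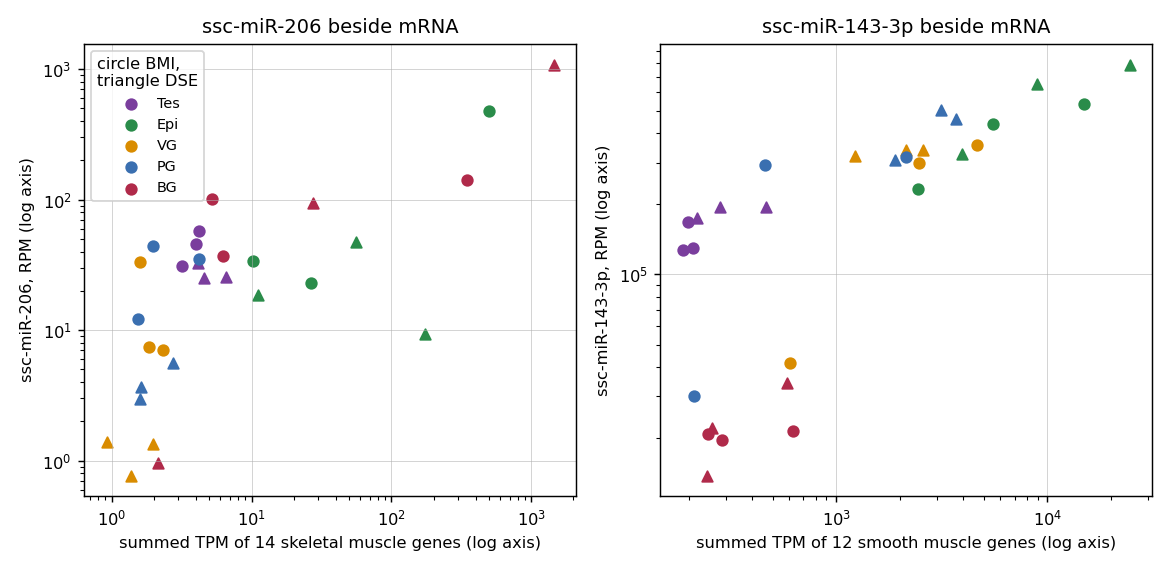
Each library by its miRNA RPM and the summed TPM of muscle genes in the RNA-seq library of the same name, both on log axes, including miR-206 against the 14 skeletal genes and miR-143-3p against the 12 smooth muscle genes. DSE bulbourethral gland 3 lay at the upper end of both axes for miR-206 (1081 RPM and 1451 TPM), and testis and bulbourethral gland lay at similar smooth muscle TPM but apart in miR-143-3p.

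Genes reported elsewhere as targets of these miRNAs moved in both directions. Of 9 tested genes listed for miR-143 and miR-145, 2 were higher (FSCN1 and ADD3) and 1 lower (KLF5) in Epi (background 15.1% called higher and 6.56% lower), and in BG 1 was higher (KLF5, background 8.45%) and 3 lower (ADD3, ACE and IRS1, background 12.0%). In Tes 4 of the 9 were higher (background 34.6%), and 3 were lower in VG (30.1%) and 3 in PG (12.8%). KLF5, a factor that smooth muscle cells, among others, express when they are not contractile, had its lowest median in Epi, 7.75 TPM, and its highest in BG, 67.0 TPM. Which cells made it in these glands was not tested. KLF4, a relative of KLF5, was highest in Tes, at a median of 117 TPM, and the list median was -0.10 in Epi and -0.25 in BG. ACE, the most abundant of the list, was called higher in Tes by 5.61 log2 units, and its testis form is made by germ cells. For miR-1 and miR-206, 4 of 8 targets were higher in Epi (GJA1, POLA1, FSTL1 and CCND1, background 15.1%) and none lower. Of these, GJA1 was also called higher in Tes (1.18) and lower in PG (-1.29), and CCND1 was called lower in Tes (-2.40). TIMP3, the most abundant of that list, was called in no gland. For miR-133, 4 of 5 were higher in Epi (background 15.1%), 1 was higher in Tes (34.6%), 2 were lower in VG (30.1%) and 1 was lower in PG (12.8%), and RHOA, the most abundant, was at medians of 95.8 to 249 TPM.

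The transcripts that could carry the hairpins were looked up by position. MIR206 and MIR133B both lie in the single exon of ENSSSCT00000104544 (chr7:45975340-45982243, plus strand), a long non-coding gene in the deposited annotation. Its TPM was 0.390 in DSE BG 3, 0.0213 in BMI BG 1, 0.0292, 0.0145 and 0.00701 in DSE Epi 3, BMI Epi 1 and DSE Epi 1, and 0 in the other 25 RNA-seq libraries. No Iso-seq read of it was counted among 3468110, which allows up to 0.0865 reads per 100000 for counting error alone. In BG this transcript and miR-206 were highest in the same library, DSE BG 3, and in Epi they were highest in different ones, DSE Epi 3 and BMI Epi 1.

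Upstream of MIR143, ENSSSCG00000032383 ends 555 bases before the hairpin on the same strand. It was highest in Epi, at 7.68 to 152 TPM (median 26.4), and its medians in the other glands were 0.49 in Tes, 0.54 in BG, 1.84 in VG and 3.24 in PG. In Iso-seq it had 284 of 231413 full-length reads in DSE Epi (122.7 per 100000, exact binomial 95% interval 109 to 138) and 191 of 458697 in BMI Epi (41.6, interval 35.9 to 48.0), and 4 to 27 reads in each of the other 8 libraries. The next gene by position is ENSSSCG00000052618, a gene on the minus strand whose exon overlaps the end of MIR143 and whose intron holds MIR145, which had medians of 96.4 TPM in Epi, 14.7 in PG, 7.15 in VG, 4.53 in BG and 2.54 in Tes. It had no Iso-seq isoform. The strand used in counting RNA-seq is not given in the sources used here, so reads of this gene and of a transcript of the other strand that carries MIR143 and MIR145 cannot be told apart. Both genes were highest in DSE Epi 2, which also had the highest miR-143-3p, 788479 RPM, and the highest smooth muscle sum, 24662 TPM. In Tes, where miR-143-3p was 7.65-fold higher than in BG on the RPM scale, the medians of these 2 genes were below those in BG.

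The known miRNAs most like the members over the 10 group means of log2(RPM + 1) were found among 306 others, as a description over groups that share libraries and totals. For miR-206 they were miR-758 (Pearson r 0.84), miR-370 (0.83) and miR-136-3p (0.79). For miR-1 they were miR-451 (0.92), miR-194a-5p (0.91) and miR-129a-3p (0.88). For miR-133a-3p they were miR-204 (0.90), miR-378b-3p (0.80) and miR-10a-3p (0.76), for miR-143-3p miR-204 (0.85), miR-378b-3p (0.75) and miR-10a-5p (0.70), and for miR-145-5p miR-204 (0.98), miR-378b-3p (0.82) and miR-99a-3p (0.81). miR-204 and miR-378b-3p thus came first and second for members of both sets, whereas none of the 3 found for miR-206, nor of the 3 found for miR-1, was found for another of these members.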

How the data were processed

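Total RNA of 30 tissue samples was used by the authors for small RNA and RNA-seq libraries and, with 1 library per group, for PacBio Iso-seq. The authors trimmed small RNA reads with cutadapt, removed reads of other small RNAs with Bowtie (1.3.1 in the submitters' processing notes) and counted miRNAs with the miRDeep2 quantifier, and deposited RPM with 2 decimals. RNA-seq was deposited as TPM, which the authors estimated with Salmon (1.9.0) on a merged annotation of known and Iso-seq transcripts on genome susScr11, whose transcript positions were used as deposited. Iso-seq was deposited as full-length read counts per isoform. The authors aligned RNA-seq reads with STAR (2.7.10a) and Iso-seq isoforms with GMAP (2018-07-04, as GSNAP in those notes). The strand of counting is not given in the sources used here, and the labels and the study's methods differ on whether RNA-seq used rRNA depletion or poly-A selection.

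Members and lists were chosen with earlier results of these data known. From the deposited values, log2(RPM + 1) and log2(TPM + 1) were fitted with limma 3.58.1 in R 4.3.3, on all 30 libraries with 1 mean per breed and gland, for entries or genes that reached 1 RPM or TPM in 3 or more libraries. Differences were called at a Benjamini-Hochberg adjusted p below 0.05 with a log2 fold change of at least 1 (for the interaction, by p alone). All members were named, the 3 known miRNAs most correlated with each of 5 members, and the 4 genes of highest mean TPM per messenger RNA list. Other genes are named where a count needed it. In 28 libraries at least 95% of low RPM values were whole multiples of 1 read within 0.1 of a step. In BMI Epi 3 and DSE VG 2 this was 94.9% and 93.3%. The recovered reads gave the depth, from 1.295 M to 21.672 M reads, and were tested with edgeR 4.0.16 (quasi-likelihood) as an alternative. Floors (3 reads) and 95% exact binomial intervals cover counting error only. Both fits were tested on simulated data. Transcripts within 1000 bases of a precursor were taken as neighbours.

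Replicate numbers are shared between groups, but the labels do not say that they mark an animal or a day. Deviations from the group means had a correlation over 0.1 in 6 of 15 pairs of libraries of equal number between breeds and in 22 of 60 between glands, so no pairing was used. Alternatives were size factors, RPM without member reads, edgeR, no filter, a pseudocount of 0.1, a replicate block and each library left out. No library was left out of the reported values, and no pair of libraries was identical. No column of the tables was without a sample. The rest was computed in Python 3.11.15 (figures: matplotlib 3.10.9; tables and statistics: scipy 1.17.1, pandas 2.3.3, numpy 2.4.6). Counts of calls outside Epi for the list of miR-1 and miR-206 targets are not reported here.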

Additional observations from a re-analysis of the deposited data

Results flagged for a closer look

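Of the 45 groups of member and gland, each of 6 libraries, 10 held 1 library whose gap to the nearest of the others exceeded, as a share of the range of the group, Dixon's 95% limit. About 1 in 20 would by chance if values were normally distributed. RPM spanned up to 1126-fold within a group, and several of the 10 were the same library, so that rate need not hold here. In BG, DSE BG 3 was the highest for miR-1 (4650.57 RPM), miR-133a-3p (259.76 RPM), miR-133a-5p (0.72 RPM), miR-133b (15.88 RPM) and miR-206 (1081.28 RPM). The RNA-seq library of the same name had the highest sum of the 14 skeletal muscle genes, 1451 TPM. In Epi, BMI Epi 1 was the highest for miR-133a-3p (287.06 RPM) and miR-206 (476.56 RPM), beside a sum of 494 TPM, and its AWN level of 2446 TPM was the highest of the epididymal libraries. In VG, BMI VG 3 was the highest for miR-206 (33.13 RPM), with a sum of those 14 genes of 1.59 TPM. BMI VG 1 was the lowest of its gland for miR-143-3p (41804 RPM) and the highest for miR-143-5p (298.06 RPM), with the lowest smooth muscle sum, 606 TPM. The part of these values in the miRNA levels was not tested.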

How the results depend on the processing

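Of the 37 calls of members reported, 37 kept direction and threshold with a replicate block, 33 without member reads in the RPM total, 28 with size factors, 36 without a filter and 36 with a pseudocount of 0.1. With edgeR 22 did so and 1 turned, miR-1 in Tes against VG (-0.28). With 1 library left out, 1082 such values were kept and 28 lost the call.

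By setting, the counts of called members that moved by over 1.5 times were as follows. With size factors they were 0 between breeds within glands, 1 in Epi against VG, 5 in Tes against PG and 6 in Tes against VG. Without member reads they were 52 over all pairs of glands, 0 between breeds within glands, 0 over all glands, 6 in Epi against PG, 9 in Epi against VG and 2 in Tes against PG. With edgeR they were 0 between breeds within glands, 5 in Epi against BG, 2 in Epi against PG, 9 in Tes against Epi, 6 in Tes against PG and 7 in Tes against VG. Without a filter the call between breeds over all glands was lost (0). Smooth muscle genes higher in VG were 2 without a filter and 9 with size factors, and those higher in PG were 2 with size factors. The log2 ratio of the skeletal set to miR-145 alone was 0.99 in Tes, -0.87 in Epi, -1.20 in VG, -1.50 in PG and -0.056 in BG. The cause of these changes was not tested.

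With 1 library left out at a time, the counts ranged from 30 to 47 over all pairs, from 1 to 3 between breeds within glands, from 0 to 1 over all glands and from 0 to 1 for the interaction. They ranged from 7 to 9 in Epi against BG, 0 to 3 in Epi against PG, 2 to 6 in Epi against VG, 4 to 7 in PG against BG, 5 to 7 in Tes against BG, 3 to 5 in Tes against Epi, 1 to 2 in Tes against PG, 2 to 3 in Tes against VG and 5 to 8 in VG against BG. Skeletal muscle genes higher in BG ranged from 1 to 10, and smooth muscle genes higher in VG from 2 to 6 and in PG from 0 to 2. Further pairs of libraries were left out in settings chosen after the data were seen. Without BMI Epi 1 and DSE BG 3 the counts were 7 in PG against BG, 2 in Tes against PG and 8 in VG against BG, with 1 skeletal muscle gene higher in BG and 2 smooth muscle genes higher in PG. Without BMI VG 1 and BMI PG 3 they were 2 in Tes against PG and 2 smooth muscle genes higher in PG. Without BMI PG 2 and BMI Epi 1 they were 0 between breeds over all glands and 3 in Tes against Epi.

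With 3 libraries a group, differences of miR-206, whose SE between glands was 0.94 and between breeds within a gland 1.33 log2 units, were not detectable unless severalfold. The testis libraries were the shallowest, and miR-133a-5p and miR-133b rested on few reads there and, apart from miR-133b in DSE BG 3 (288 reads), in BG. RPM shares its total with miR-143-3p. Replicate numbers could not be shown to pair the samples, and the block gave 35 calls over all pairs against 34.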

Other observations

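Endothelial genes, which mark the vessels that smooth muscle and pericytes surround, did not share the order of miR-143-3p. The list of PECAM1, CDH5, KDR and TEK summed to medians of 103 TPM in PG, 99.8 in Epi, 69.9 in BG, 38.0 in Tes and 28.7 in VG. BG thus stood above VG in endothelial genes, with libraries from 50.7 to 130 TPM against 17.7 to 40.2, whereas miR-143-3p and both arms of miR-145 were lower in BG than in VG by limma. Of the 4 genes, TEK was called lower in Tes, where 12.7% of all genes were, and 2 were called lower in VG, where 30.1% of all genes were.

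The epididymal libraries differed in markers of the epididymis itself. LCN8 and RNASE10 reached 9677 and 10290 TPM in BMI Epi 2, against epididymal medians of 5.44 and 13.7 TPM, and that library had the lowest miR-143-3p of the gland (231391 RPM) and the lowest smooth muscle sum (2454 TPM). Its miR-1 was 1685 RPM, within the range of the other 5 epididymides.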
